A study of Mus musculus with 8 samples.

Results

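The genes described here are the 3 prolyl hydroxylases Egln1, Egln2 and Egln3, the oxygen-regulated factor Hif1a, and 6 known targets of hypoxia-inducible factors, Vegfa, Bnip3, Pdk1, Slc2a1, Ndrg1 and Ankrd37. They were followed in liver RNA of mice aged 2 days, 4 with the genotype Mfp2 -/- and 4 wild type, with 1 Affymetrix array per mouse. Mfp2 is a peroxisomal enzyme of fatty acid and bile acid precursor breakdown, and it is encoded by Hsd17b4. The labels name no other allele or treatment in either group. How the knockout was made, the strain and the sex of the mice are not given in the labels. All probe sets annotated to exactly 1 of the 10 symbols were taken, which gave 25 of the 45037 probe sets tested, and 10 of the 18193 genes named. Egln3 entered because its level was lower in the knockout in this same comparison, so its difference is given as a description without a test. The other 9 genes were listed for what is known of their regulation, with earlier results of these arrays in view, and the adjusted p-values printed for them are descriptive.

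Hypoxia-inducible factors (HIF) are pairs of an oxygen-regulated alpha subunit, such as the product of Hif1a, and a stable beta subunit, Arnt. In the presence of oxygen the Egln enzymes hydroxylate prolines of the alpha subunit, which the Vhl protein then marks for destruction. When oxygen is short the alpha subunit persists and the pair binds DNA at short motifs near its target genes. Egln3 and Egln1 are themselves targets of HIF, so that they are both sensors and outputs of the pathway. The liver is a site of blood formation around birth, and it holds red cell precursors beside hepatocytes.

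Values are on the log2 scale as the authors deposited them. Differences are knockout minus wild type from limma, each with its standard error (SE) from the model, and adjusted p-values are Benjamini-Hochberg values over all 45037 probe sets. Past the threshold means an adjusted p under 0.05. Knockout livers had a mean of 3.84 ± 0.45 (SD, n = 4) for the targeted gene Hsd17b4, against 8.50 ± 0.40 in wild type, and the groups did not overlap. Array medians lay between 3.68 and 3.73, and correlations between arrays of a group, over all probe sets, lay between 0.983 and 0.993. The hepatocyte marker Alb was at 13.5 in both groups, near the highest value on the arrays, 13.7. The hepatocyte markers as a set are given below. With genotype in the model, 229 probe sets passed the threshold between arrays numbered 3 and 4 and arrays numbered 1 and 2. Differences within these 2 sets of arrays are therefore given below. The labels do not say what sets them apart, and they do not tie a replicate number to a litter or a day.

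Egln3 was lower in every knockout liver than in every wild type liver by both of its probe sets. At 1418649_at the values were 5.48, 5.48, 5.14 and 5.34 in knockout livers 1 to 4, and 6.35, 6.75, 7.05 and 7.11 in wild type livers 1 to 4. The knockout livers lay close together, and wild type 3 and 4 were the highest. The means were 5.36 ± 0.16 (SD, n = 4) and 6.81 ± 0.35, a difference of -1.45 ± 0.17 (SE) or a 2.74-fold lower level. The difference was -1.07 among livers numbered 1 and 2 and -1.84 among those numbered 3 and 4.

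The other Egln3 probe set, 1418648_at, is built on the same source sequence by the array annotation. It read 5.70, 5.69, 5.32 and 5.65 in knockout livers 1 to 4, and 6.11, 6.65, 6.07 and 6.07 in wild type livers 1 to 4. Its groups did not overlap either, but here wild type 2 was the highest liver rather than wild type 3 and 4. Its difference was -0.64 ± 0.15 (SE), or 1.56-fold lower, with -0.69 among livers numbered 1 and 2 and -0.59 among those numbered 3 and 4. Both probe sets thus gave the same direction in each set of arrays and differed in size.

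The related hydroxylases did not pass the threshold. Egln1, which encodes the main hydroxylase of HIF in most tissues, read 6.32, 6.50, 5.90 and 6.17 in knockout livers 1 to 4 at 1423785_at. It read 6.48, 6.65, 6.42 and 6.53 in wild type livers 1 to 4. Knockout 3 was the lowest liver and knockout 2 lay among the wild type values, so that the groups overlapped. The difference was -0.30 ± 0.13 (SE), with an adjusted p of 0.411 and a 95% interval from -0.59 to -0.01. The other probe set of Egln1, 1451110_at, differed by -0.24 ± 0.14 with an adjusted p of 0.572. Egln2, a hydroxylase that is not known as an output of HIF, differed by 0.10 ± 0.10 with an adjusted p of 0.785. Its 95% interval ran from -0.12 to 0.32.

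Hif1a, the oxygen-regulated alpha subunit, has 4 probe sets on the array, and none passed. At 1427418_a_at the values were 8.02, 7.44, 8.17 and 7.76 in knockout livers 1 to 4, and 7.23, 7.66, 7.63 and 7.59 in wild type livers 1 to 4. The groups overlapped through knockout 2. The difference was 0.32 ± 0.17 (SE), with an adjusted p of 0.516 and a 95% interval from -0.05 to 0.69. The probe sets 1448183_a_at and 1416035_at differed by 0.26 ± 0.17 and -0.25 ± 0.17, with adjusted p-values of 0.630 and 0.637. At 1431981_at all knockout values lay above the wild type values, with a difference of 0.32 ± 0.11 and an adjusted p of 0.293, but it read below the array median on all 8 arrays, so expression is not shown there. HIF activity is set largely by the stability of the Hif1a protein, which these arrays do not measure.

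**Figure D1:**
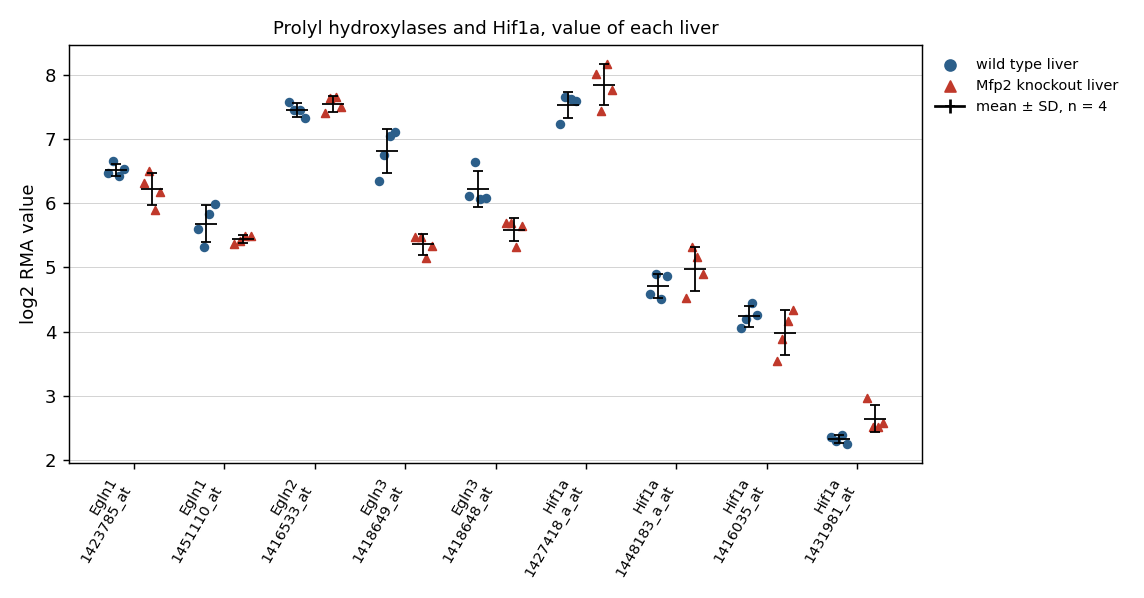
The plot of the sensors and Hif1a shows the log2 value of each liver at 9 probe sets, with wild type livers as circles, knockout livers as triangles, and the mean ± SD (n = 4) as bars. The groups stood apart at both Egln3 probe sets, with means of 5.36 and 6.81 at 1418649_at, and at the dim Hif1a probe set 1431981_at.

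Among the 6 target genes, Ankrd37 was the one past the threshold. Ankrd37 encodes an ankyrin repeat protein and is a direct HIF target. It read 3.52, 3.14, 3.42 and 3.46 in knockout livers 1 to 4, and 4.64, 4.23, 4.05 and 4.26 in wild type livers 1 to 4. All knockout values lay below all wild type values, with wild type 1 the highest and knockout 2 the lowest. Ankrd37 fell by 0.91 on the log2 scale, with an SE of 0.14, or 1.87-fold, with an adjusted p of 0.0336. The knockout mean of 3.39 ± 0.17 (SD, n = 4) lies below the array medians and the wild type mean of 4.29 ± 0.25 lies just above them, so the knockout level may be background and the fold too small. The difference was -1.10 among livers numbered 1 and 2 and -0.71 among those numbered 3 and 4. With knockout 3 or 4 left out the adjusted p of Ankrd37 was 0.0821 or 0.0920, and with wild type 3 or 4 left out it was 0.0874 or 0.110, with differences between -0.99 and -0.92.

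Slc2a1, the glucose transporter GLUT1, had lower means in the knockout at all 3 of its probe sets, and none passed. At 1434773_a_at it read 7.70, 6.49, 7.90 and 7.23 in knockout livers 1 to 4, and 7.84, 7.70, 8.46 and 8.88 in wild type livers 1 to 4. Knockout 2 was the lowest and wild type 3 and 4 the highest, and knockout 3 lay among the wild type values. The difference was -0.89 ± 0.33 (SE), with an adjusted p of 0.317. The probe sets 1426599_a_at and 1426600_at, which share a source sequence, differed by -0.84 ± 0.26 and -0.71 ± 0.23, with adjusted p-values of 0.217 and 0.253. The 95% intervals of all 3 lay below 0, the widest from -1.64 to -0.15, while the adjustment over all probe sets left them short of the threshold. At 1434773_a_at the difference was -0.68 among livers numbered 1 and 2 and -1.10 among those numbered 3 and 4.

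Ndrg1, a stress-responsive gene induced by hypoxia, has 5 probe sets, and none passed. At 1420760_s_at it read 7.69, 7.28, 7.39 and 7.48 in knockout livers 1 to 4, and 7.19, 7.78, 7.82 and 8.34 in wild type livers 1 to 4. Wild type 1 was the lowest liver of all 8 and wild type 4 the highest, so that the knockout values fell inside the wild type range. The difference was -0.32 ± 0.21 (SE), with an adjusted p of 0.628. It was 0.00 among livers numbered 1 and 2 and -0.65 among those numbered 3 and 4. The other 4 probe sets of Ndrg1 differed by -0.22 to -0.43, with adjusted p-values between 0.569 and 0.745, and each had its lowest wild type value in wild type 1 and its highest in wild type 4.

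Pdk1, the kinase that holds pyruvate back from the mitochondrial pyruvate dehydrogenase, gave different answers by probe set, and none passed. At 1423747_a_at it read 7.39, 6.22, 6.65 and 6.91 in knockout livers 1 to 4, and 7.08, 6.94, 6.95 and 6.83 in wild type livers 1 to 4. The knockout livers lay on both sides of the wild type livers, which were close together. The difference was -0.16 ± 0.21 (SE), with an adjusted p of 0.853. At 1435836_at the values were 4.78, 4.66, 4.33 and 4.79 in knockout livers 1 to 4, and 5.21, 5.13, 5.17 and 5.78 in wild type livers 1 to 4. Here the groups did not overlap, and the difference was -0.68 ± 0.16 with an adjusted p of 0.103. The probe sets 1423748_at and 1434974_at differed by -0.08 ± 0.14 and 0.21 ± 0.16, and the latter read below the array median on all 8 arrays.

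Vegfa and Bnip3 had higher means in the knockout and did not pass. Vegfa, the growth factor of blood vessels, read 6.72, 6.73, 6.28 and 6.72 in knockout livers 1 to 4 at 1420909_at, and 6.05, 6.52, 6.39 and 6.45 in wild type livers 1 to 4. Knockout 3 fell among the wild type livers and the other 3 knockout livers lay above them. The difference was 0.26 ± 0.14 (SE), with an adjusted p of 0.546 and a 95% interval from -0.06 to 0.58, and 1451959_a_at differed by 0.20 ± 0.16. Bnip3, a mitochondrial protein that promotes the removal of mitochondria, read 9.08, 8.98, 9.30 and 8.49 in knockout livers 1 to 4, and 8.84, 9.13, 8.24 and 8.60 in wild type livers 1 to 4. The groups overlapped widely. The difference was 0.26 ± 0.21, with an adjusted p of 0.715 and a 95% interval from -0.21 to 0.74. The 95% interval of Vegfa 1451959_a_at ran from -0.16 to 0.56. Because Egln3 was chosen by this comparison, its difference was not used as a measure for these intervals.

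**Figure D2:**
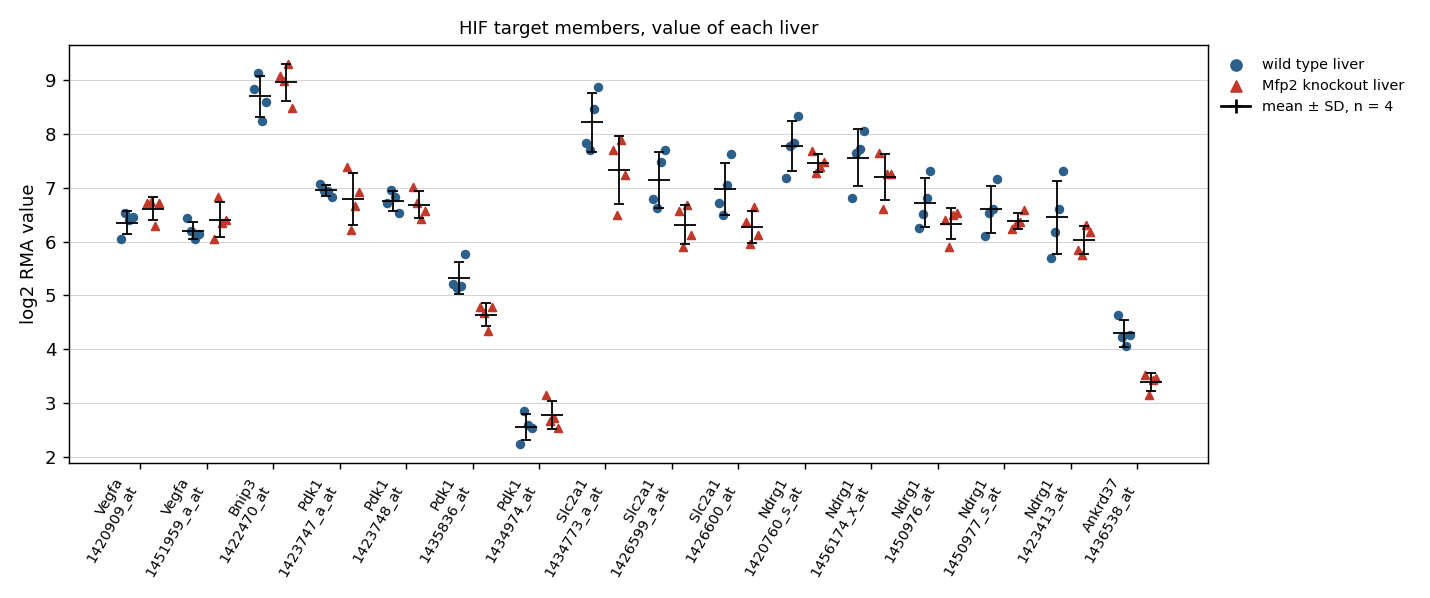
The plot of the target genes shows the log2 value of each liver at the 16 probe sets of Vegfa, Bnip3, Pdk1, Slc2a1, Ndrg1 and Ankrd37, with wild type livers as circles, knockout livers as triangles, and the mean ± SD (n = 4) as bars. Ankrd37 (means 3.39 and 4.29) and Pdk1 1435836_at (means 4.64 and 5.32) were the 2 without overlap, while the highest Slc2a1 and Ndrg1 values belonged to wild type 4.

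Of the 25 probe sets, 2 passed the threshold, 1418649_at of Egln3 and 1436538_at of Ankrd37, both lower in the knockout. Over all probe sets 0.762% passed in either direction and 0.564% were lower. Because Egln3 was chosen by this comparison, nothing is read from the count. The groups did not overlap at 5 of the 25, with 4 lower and 1 higher in the knockout, where 6.90% of all probe sets had groups without overlap, 3.81% with the knockout lower and 3.09% with it higher. Both Egln3 probe sets are among the 4, so nothing is read from this count either. The means were lower at 17 of the 25 probe sets and higher at 8, with a median difference of -0.25, beside 45.9% lower and a median of 0.02 over all probe sets. Ndrg1 alone gives 5 of the 17 and Slc2a1 gives 3, and probe sets of a gene are not independent. Both probe sets of Egln3, the gene chosen for its lower level, are also among the 17 and in the median. Nothing is therefore read from the 17 or the median. The count of 2 was 1 without knockout 3 and 0 without knockout 4, wild type 3 or wild type 4. Among livers numbered 1 and 2 it was 0, and among those numbered 3 and 4 it was 1.

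**Figure D3:**
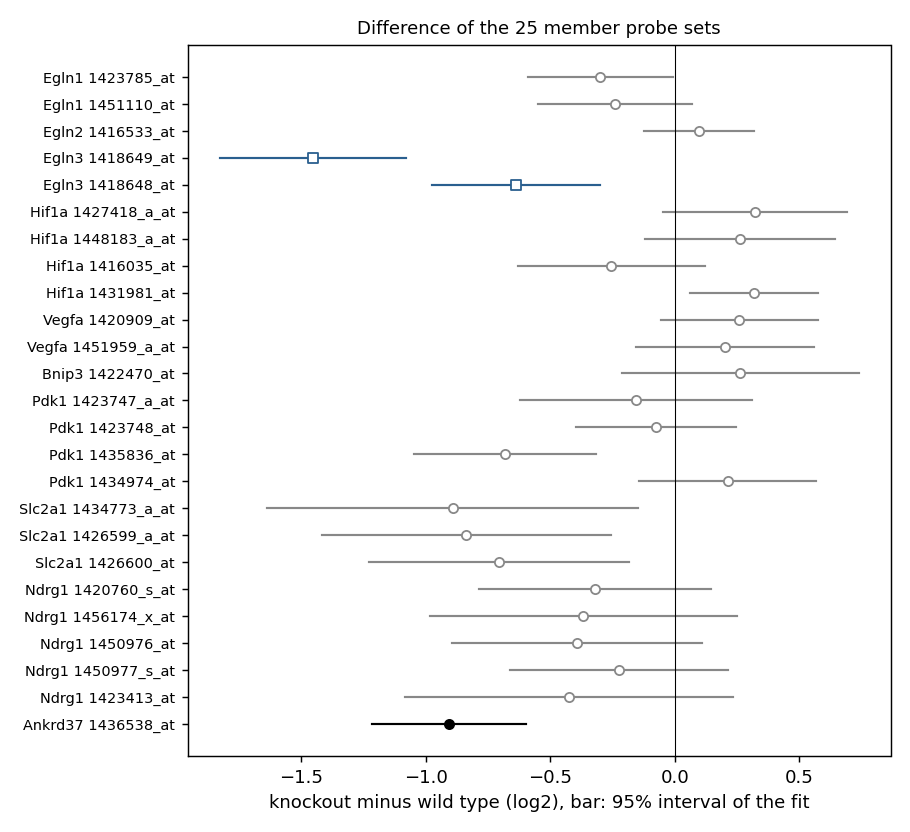
The plot of differences gives, for each of the 25 probe sets, the knockout minus wild type difference on the log2 scale with its 95% interval from the fit, with circles filled where the adjusted p was under 0.05. Both Egln3 probe sets are open squares, drawn without a call because this comparison chose the gene. Ankrd37 at -0.91 is the filled circle, and Hif1a 1427418_a_at, Vegfa and Bnip3 lie to the right of 0.

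The sequences before the start of some members are shown because the genes above differed in direction while each of the 9 genes searched carries the core motif that HIF binds. The motif was searched as ACGTG and GCGTG on both strands, so that CACGT and CACGC count as well, in the 250 bases before each start in the RefSeq promoter table of the mouse build GRCm38.p6. Matches that overlap were counted as 1 site. At least 1 match was found in 38.6% of the 32851 windows of the table, and in 10 of the 12 windows of members. In the table were 9 of the 10 members, each with a match in at least 1 window. Ndrg1 was not in the table, so it was not searched. Matches are in capitals, the strand is that of the gene, and each sequence runs 5′ to 3′. A match is a description of the letters and does not show that HIF binds there in liver.

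Egln3, the lowest in the knockout relative to wild type, had 1 match, which starts 229 bases before the start (chr12:54203875-54204124, minus strand).
Egln3: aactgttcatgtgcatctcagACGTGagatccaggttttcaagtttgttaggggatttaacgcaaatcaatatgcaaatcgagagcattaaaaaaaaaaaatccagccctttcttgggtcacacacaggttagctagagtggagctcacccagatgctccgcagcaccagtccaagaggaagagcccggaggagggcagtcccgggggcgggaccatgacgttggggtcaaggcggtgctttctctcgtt
Bnip3, which did not pass and had a higher mean in the knockout, had 4 sites, the first of them 117 bases before the start (chr7:138909507-138909756, minus strand).
Bnip3: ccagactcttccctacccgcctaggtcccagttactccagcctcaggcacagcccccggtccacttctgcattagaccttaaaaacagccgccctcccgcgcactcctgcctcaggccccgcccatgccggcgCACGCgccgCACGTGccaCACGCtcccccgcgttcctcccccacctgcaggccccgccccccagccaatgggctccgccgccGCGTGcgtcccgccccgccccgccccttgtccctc
Slc2a1, with lower means at all its probe sets and none past the threshold, had 2 sites, 61 and 36 bases before the start (chr4:119108495-119108744, plus strand).
Slc2a1: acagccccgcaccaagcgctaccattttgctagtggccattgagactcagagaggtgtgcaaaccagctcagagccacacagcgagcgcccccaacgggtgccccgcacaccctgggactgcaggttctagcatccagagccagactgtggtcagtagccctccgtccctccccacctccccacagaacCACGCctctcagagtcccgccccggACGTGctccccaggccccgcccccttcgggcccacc
Ankrd37, which fell, had 3 sites, whose motifs begin 241, 155 and 6 bases before the start, and the bases around each are shown (chr8:46000077-46000100, chr8:45999991-46000015 and chr8:45999851-45999866, minus strand).
Ankrd37 site a: cccagcagtACGTGcctagctcgg
Ankrd37 site b: cttcactgcgCACGCGTGctgcggc
Ankrd37 site c: gtgtttgggtACGTGa

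Whether the number of sites goes with the differences was not tested. Ankrd37 had 3 sites, Slc2a1, Egln1 and Hif1a had 2 each, and Egln3 had 1. Bnip3 and the first window of Egln2 had 4 each, and the second window of Egln2 had 1. The windows of Vegfa had 0 and 2 sites, and those of Pdk1 had 1 and 0. Windows with 3 or more sites made up 4.65% of the table. Sites farther from the start, as in introns, were not searched.

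Of 10 further genes of oxygen sensing and HIF subunits, each read at its brightest probe set, 0 passed in limma. Their median difference was -0.05, where that of all 18193 genes was 0.01. An unadjusted p under 0.05 in limma was found for 2 of the 10, beside 2654 of all 18193 genes. Those 2 were Epas1, which encodes the HIF-2 alpha subunit, at 0.51 ± 0.21 (SE, adjusted p 0.371), and Siah2, a ubiquitin ligase that acts on Egln proteins, at 0.27 ± 0.11 (adjusted p 0.364). At this probe set Epas1 overlapped between the groups, its mean being 9.07 ± 0.45 (SD, n = 4) with the knockout and 8.56 ± 0.24 without it. Its dimmer probe set, 1449888_at, differed by 0.12 ± 0.12. Arnt, the stable partner, differed by 0.00 ± 0.12 at its brightest probe set, 1419996_s_at. Of its other 4 probe sets, 1437042_at differed by 0.23 ± 0.11 (adjusted p 0.478) and 1421721_a_at by -0.08 ± 0.13. The remaining 2 read below the array median on all 8 arrays and differed by 0.42 ± 0.14 and 0.02 ± 0.10. Vhl, the recognition subunit for hydroxylated HIF, differed by -0.17 ± 0.14 and -0.26 ± 0.13 at its probe sets. Arnt and Vhl were picked for naming with their values in view. With every probe set of a gene counted, 0 of the 10 passed as well. By that count 3 of the 10 had an unadjusted p under 0.05 in limma, beside 3497 of all 18193 genes.

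Other known HIF targets outside the 10 genes were counted in 39 genes found on the array, 27 outside glycolysis and 12 within it. Of the 39, 4 passed, 3 lower and 1 higher in the knockout, beside 1.15% of all genes, with 0.841% lower and 0.308% higher. The means were lower in 28 of the 39 genes, where 46.7% of all genes had lower means, and the median difference was -0.17. Outside glycolysis 17 of the 27 had lower means with a median of -0.04, which was -0.12 among livers numbered 1 and 2 and -0.01 among those numbered 3 and 4. Within glycolysis it was 11 of 12 with a median of -0.22. The median of the 39 was -0.24 among livers numbered 1 and 2 and -0.09 among those numbered 3 and 4. The groups did not overlap in 8 of the 39, with 7 lower and 1 higher, beside 8.61% of all genes, of which 5.02% were lower and 3.59% higher. The list was drawn from textbook knowledge with earlier results of these arrays known, so nothing is called particular to it. The count of 4 was 3 without knockout 2, 2 without knockout 1, 1 without wild type 1, 5 without wild type 2, and 0 without any single one of knockout 3 and 4 and wild type 3 and 4.

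Outside glycolysis, Adm and Slc16a3 fell. Adm, the vasodilator peptide adrenomedullin, read 4.04, 4.30, 4.12 and 3.95 in knockout livers 1 to 4 at 1416077_at, and 5.34, 4.58, 5.06 and 5.05 in wild type livers 1 to 4. Every knockout value lay below every wild type value, with wild type 2 the nearest. Adm fell by 0.90 on the log2 scale (SE 0.16), or 1.87-fold, with an adjusted p of 0.0410, and its other probe set, 1447839_x_at, differed by -0.54 ± 0.12. Slc16a3, the lactate exporter MCT4, fell by 0.77 (SE 0.12) with an adjusted p of 0.0340. Its wild type mean was 4.30 ± 0.20 (SD, n = 4) and its knockout mean 3.53 ± 0.12, the latter below the array medians. Narf has 3 probe sets, at each of which every knockout value lay below every wild type value. At the brightest, 1451678_at, which stands for the gene in the count, it differed by -0.62 ± 0.13 with an adjusted p of 0.0639. At 1425344_at it differed by -0.74 ± 0.16 with an adjusted p of 0.0712, and at 1451677_at by -0.76 ± 0.13 with an adjusted p of 0.0441, past the threshold. Where any probe set of a gene could pass, a rule added after the data were seen, Narf joined the other 4, and 5 of the 39 passed beside 1.49% of all genes. Angptl4, an inhibitor of lipoprotein lipase that also answers to PPARalpha, differed by 0.86 ± 0.26 in the other direction, with an adjusted p of 0.204. Narf and Angptl4 were picked for naming with their values in view.

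Of the 12 glycolytic targets, 11 had lower means, Hk1 fell and Aldoc rose. Hk1, a hexokinase, read 7.70, 7.54, 7.11 and 7.26 in knockout livers 1 to 4 at 1437974_a_at, and 8.21, 8.09, 8.24 and 8.07 in wild type livers 1 to 4. It fell by 0.75 (SE 0.13) with an adjusted p of 0.0441, and its other probe set differed by -0.85 ± 0.17. Aldoc, an aldolase of brain and fetal tissues, rose by 0.87 ± 0.13 (SE) at 1451461_a_at, from 6.79 ± 0.24 (SD, n = 4) to 7.66 ± 0.12, with an adjusted p of 0.0310. Its other probe set, 1424714_at, differed by -0.07 ± 0.10 and read below the array median on all 8 arrays, and with the mean of all probe sets of a gene in place of 1 probe set the call on Aldoc was lost. By that mean 4 of the 39 targets passed, 4 lower and 0 higher in the knockout. The median of the 12 was -0.22, with -0.39 among livers numbered 1 and 2 and -0.09 among those numbered 3 and 4. Pfkl, the liver phosphofructokinase, differed by -0.90 ± 0.18 (adjusted p 0.0586), a gene named after its values were seen.

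**Figure D4:**
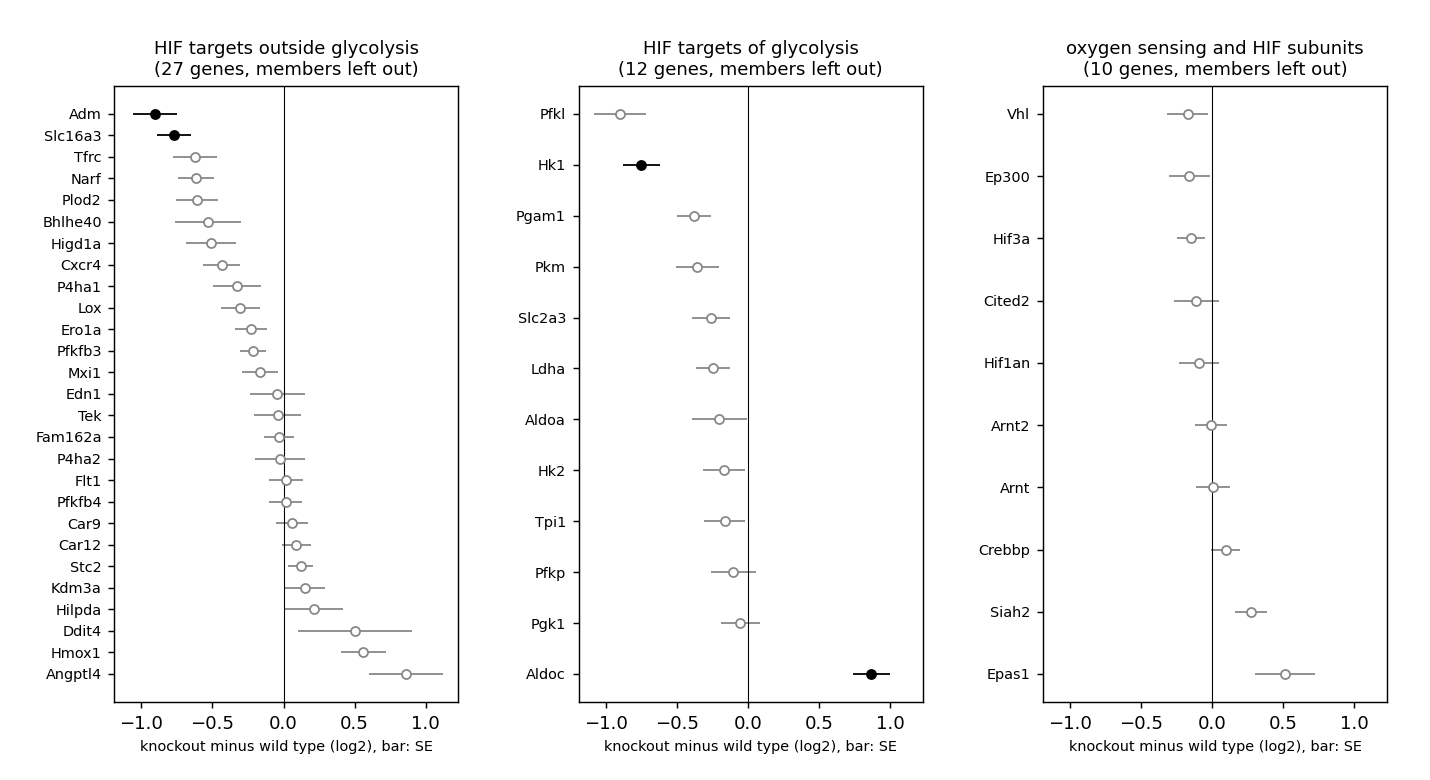
The plot of the wider pathway shows the knockout minus wild type difference on the log2 scale with its SE, 1 point per gene, for 27 HIF targets outside glycolysis, 12 in glycolysis and 10 genes of oxygen sensing, with the 10 members left out and points past the threshold filled. Adm at -0.90, Slc16a3 at -0.77, Hk1 at -0.75 and Aldoc at 0.87 are the filled points, and none is filled among the oxygen sensing genes.

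Markers of red cell precursors had lower means in the same knockout livers. All 12 measured of the 15 erythroid markers listed had lower means in the knockout, with a median difference of -0.86. Past the threshold were 3 of them, Trim10 at -1.32 ± 0.21 (SE, adjusted p 0.0366), Rhag, a red cell membrane protein, at -0.80 ± 0.15 (adjusted p 0.0480), and Ermap at -0.76 ± 0.12 (adjusted p 0.0366). Their mean per liver was 8.34, 8.63, 7.91 and 7.82 in knockout livers 1 to 4, and 9.08, 9.005, 9.19 and 9.08 in wild type livers 1 to 4. Slc4a1, the anion exchanger of the red cell, was the marker of highest level, at 10.3 in knockout and 11.3 in wild type livers, and did not pass (adjusted p 0.0654). In whole liver, fewer cells of a type and less RNA per cell cannot be told apart. With the erythroid mean as a covariate, which is nearly confounded with genotype, the Egln3 difference was -1.11 at 1418649_at and -0.50 at 1418648_at. That of Ankrd37 was -1.21, and that of Slc2a1 1434773_a_at was -1.66 (adjusted p 0.893 in limma). The other differences moved both ways. Hk1 went from -0.75 to -0.23, Adm from -0.90 to -0.56, Slc16a3 from -0.77 to -0.63 and Aldoc from 0.87 to 1.07. The sign changed at Egln1 1423785_at, to 0.16, at Hif1a 1427418_a_at, to -0.11, and at Pdk1 1423748_at, to 0.27. In that fit 0 of the 45037 probe sets passed in limma, with 2469 at an unadjusted p under 0.05.

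Within the knockout, Egln3 and the erythroid mean both were lower in livers 3 and 4 than in livers 1 and 2. The same split parts the 2 sets of arrays, between which 229 probe sets passed the threshold. Erythroid level and set of arrays cannot be told apart there. Ankrd37 and Slc2a1 were lowest in knockout 2, the knockout liver with the highest erythroid mean. Among the wild type livers the erythroid mean spanned 9.005 to 9.19, while Egln3 spanned 6.35 to 7.11 and Slc2a1 7.70 to 8.88. The markers of endothelial cells, macrophages, megakaryocytes, neutrophils, mesenchymal cells and bile ducts overlapped between the groups as means per liver, and 0 of these 46 marker entries passed in limma, with 0 at an unadjusted p under 0.05. Means were lower in the knockout for all 8 neutrophil markers (median difference -0.26) and for 8 of 10 endothelial markers (median -0.08). The same held for 4 of 8 macrophage, 5 of 8 megakaryocyte, 5 of 8 mesenchymal and 1 of 4 bile duct markers, beside 46.7% of all genes. The hepatocyte mean lay between 12.80 and 12.83 in knockout and between 12.72 and 12.75 in wild type livers, so the groups did not overlap in it. Of the 9 hepatocyte markers measured, 7 had higher means in the knockout, with a median difference of 0.07, and 0 passed in limma.

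**Figure D5:**
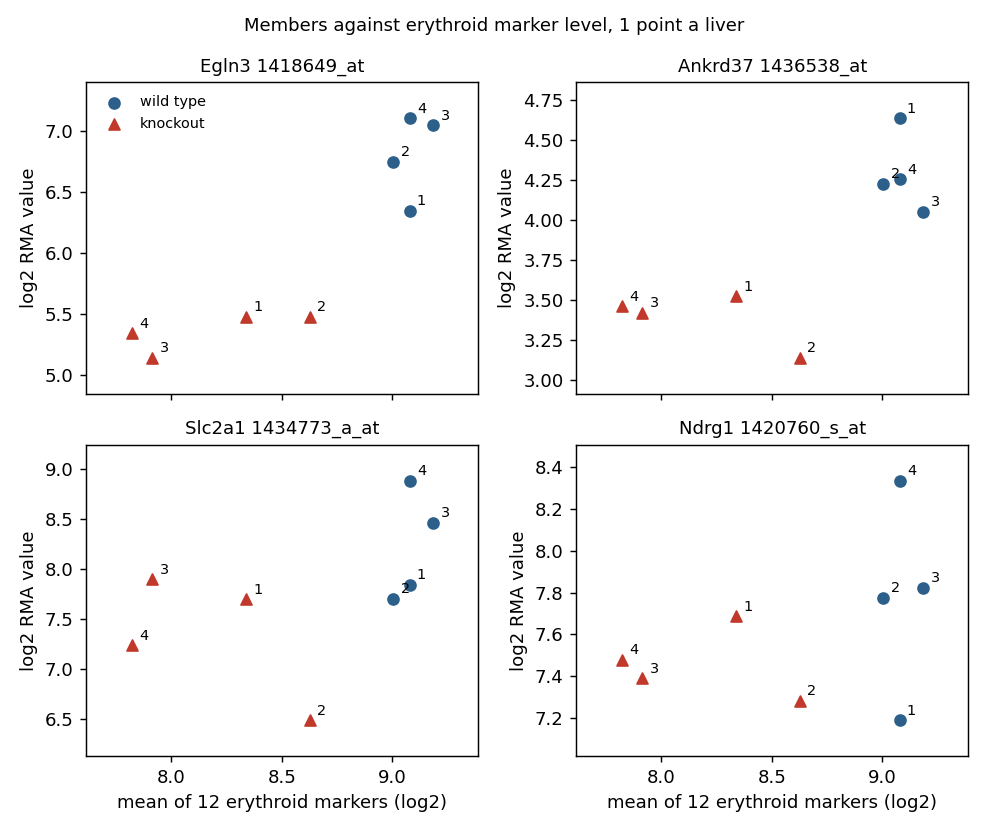
The plot against erythroid level sets the log2 value of Egln3, Ankrd37, Slc2a1 and Ndrg1 (1 probe set each) on the vertical axis against the mean of 12 erythroid markers on the horizontal axis, 1 numbered point per liver, wild type as circles and knockout as triangles. Knockout livers lie between 7.82 and 8.63 on the erythroid axis and wild type livers between 9.005 and 9.19, so genotype and erythroid level part the livers alike.

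The genes most like Egln3 across the arrays were ranked by Pearson correlation with 1418649_at over 8 livers, among 11393 genes brighter than the median of all probe sets. The 5 highest were Trim59 (0.985), Tspan8, a tetraspanin (0.984), Mxd1, a repressor that pairs with Max (0.980), Prc1, a protein of cell division (0.980), and Ccne2, a cyclin (0.977). Since the genotypes stand apart in Egln3, this ranking mostly finds genes that differ between them, and all 5 were lower in every knockout liver. With each group's mean taken away the 5 highest were Hmgcs1, an enzyme of cholesterol synthesis (0.979), Cldn2, a claudin (0.974), Adra1b, an adrenergic receptor (0.973), Rgs5, a regulator of G proteins (0.973), and Ccne2 (0.968). Hmgcs1 was higher in the knockout, by 1.14 ± 0.28 (SE, adjusted p 0.112). Its correlation with Egln3 was taken over all 8 livers with the group means removed, and none was computed within 1 genotype. None of the 9 genes in these rankings is a member of the HIF lists used here, and with 8 livers and many genes such values are a description.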

How the data were processed

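Liver RNA of 8 mice was measured on Affymetrix arrays, 1 per mouse. The authors' values are RMA summaries on the log2 scale, as the submitters' processing notes and the deposited values show. RMA gives arrays a shared distribution, so a change in total mRNA cannot be seen. Its software and settings are not stated in the labels. Of 45101 probe sets, 64 array controls were left out. The array annotation pairs 34945 probe sets with 1 gene, 932 with several, and does not list 9160. The probe set with the highest mean stood for a gene where genes were counted.

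Groups were compared with limma 3.58.1 in R 4.3.3 (lmFit, eBayes, two-sided, no covariate), with Benjamini-Hochberg adjustment over all probe sets. The fit was tested on simulated data. That the mice were separate animals follows from the design text. The number of arrays limits the precision.

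The members and lists were chosen with earlier results of these data known. Genes named are the members, Hsd17b4, pathway list genes past the threshold (at most 6 a list, or the 2 of lowest p where none passed) and the 5 most like Egln3 by either ranking. Other genes, the cell type markers named included, were picked with their values in view. Alternatives were filters, normalizations, variance models, array weights, blocks, covariates, 1 value per gene as the mean of its probe sets, a gene counted by any of its probe sets (added after the data were seen), and each array left out. Promoter sequences are RefSeq's.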

Additional observations from a re-analysis of the deposited data

Results flagged for a closer look

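In 62 groups of 4 livers, from 31 probe sets of members and of named genes, the highest or lowest liver was checked for a gap to the nearest other liver above Dixon's critical value. Chance alone flags about 5% of such groups, and 6 were found. Egln3 1418648_at was low in knockout 3, at 5.32 where the others of its group read 5.65 to 5.70, and high in wild type 2, at 6.65 against 6.07 to 6.11. Vegfa 1420909_at was low in knockout 3, at 6.28 against 6.72 to 6.73. Hif1a 1427418_a_at was low in wild type 1, at 7.23 against 7.59 to 7.66, and Hif1a 1431981_at was high in knockout 1, at 2.96 against 2.52 to 2.58. Pdk1 1435836_at was high in wild type 4, at 5.78 against 5.13 to 5.21.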

How the results depend on the processing

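Of 498 values of member probe sets under alternatives, 491 kept their sign and 488 moved by less than 1 SD. The filter, the variance models and the blocks on replicate number cannot change a difference, so their part of these counts was fixed in advance. The 7 sign changes were at uncalled probe sets of Ndrg1, Pdk1, Egln1 and Hif1a. The counts moved as follows. Over all probe sets 343 passed, and 914 with array weights, 527 with the Y-linked mean as a covariate, 15 with the replicate block, 4 within replicates 1 and 2, 0 with the erythroid covariate (2469 at an unadjusted p under 0.05), and 9 to 489 with 1 array left out. Within replicates 3 and 4 the number was 461, and with replicates 1 and 2 against 3 and 4 as a term it was 514. Of the members 2 passed, and 0 with the replicate block, within replicates 1 and 2 or with the erythroid covariate, 1 within replicates 3 and 4, and 0 to 2 with 1 array left out. Of the 39 other HIF targets 4 passed, and 7 with array weights, 0 with the replicate block, within replicates 1 and 2 or with the erythroid covariate, and 0 to 5 with 1 array left out. For these targets it was 3 within replicates 3 and 4, and 5 with replicates 1 and 2 against 3 and 4 as a term. The oxygen sensing count was 0 in limma throughout. Deviations of same-numbered livers correlated at -0.00 to 0.26, above 0.1 in 2 of 4 pairs, so the numbers are not shown to pair livers. Under the replicate block the adjusted p was 0.0560 for Ankrd37, and Adm, Slc16a3, Hk1 and Aldoc had 0.0645 to 0.0892. Signal near background limits Ankrd37 and Slc16a3.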
